A study of Mus musculus with 15 samples.

Results

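The genes of heme synthesis were followed through erythroid progenitors of the mouse fetal liver that carried a mutation of Rpl5, which encodes a component of the large ribosomal subunit. The members were the 9 rows named Alas1, Alas2, Alad, Uros, Urod, Cpox, Ppox, Fech and Tmem14c, of 55487 mouse genes listed. They were chosen by name and not by a measured value; another step of the pathway is not analysed here. All 9 were counted in all 15 libraries (at least 523 counts each) and all 9 passed the filter on low counts in every comparison.

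Heme is built from glycine and succinyl-CoA in a path that starts in the mitochondrion, runs through the cytosol and returns to the mitochondrion, where iron is inserted. Alas1 and Alas2 encode the housekeeping and the erythroid form of 5-aminolevulinate synthase (ALAS), which makes the starting step. Maturing red cells use the erythroid form and raise most enzymes of the path under GATA1 and KLF1, since each haemoglobin needs heme.

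The libraries were made from E12.5 embryos of strain 129S6/SvEvTac, and all groups were labelled as fetal liver erythroid progenitors. Mice came in 2 groups: polyA RNA was read from group 1 (3 libraries of wildtype, 3 of mutant embryos) and total RNA from group 2 (3 of wildtype, 3 of mutant, 3 labelled mutant with low yield). The deposited sample sheet gives the allele of both mutant sets of group 2 as Rpl5plusSkax23Jus and group 1 only as WT or M; low-yield is not defined there. Each comparison with wildtype asks what the Rpl5 mutation changes in these cells. The low-yield libraries were also set against the other mutant libraries of group 2. The series title names Diamond Blackfan anemia syndrome, in which too few red cells are made from birth. The group of mice and the kind of RNA cannot be told apart, so levels were compared only within a group. The labels do not say whether libraries came from separate embryos, so p-values measure the spread between these libraries, which may be technical in part. Every group held libraries with high and with low Xist, a female transcript, so its libraries did not all come from the same embryo or pool.

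Total counts ran from 48510828 to 58513669 per library in group 1 and from 24954324 to 44827821 in group 2. Rpl5 was below wildtype in every mutant library (log2 fold change -0.32 in group 1, -0.46 and -0.44 in group 2; adjusted p from 0.0087 to 0.0117, edgeR's quasi-likelihood test). None of 8 erythroid markers was at 0 in any library, but neither was any early progenitor marker, so this does not single out erythroid cells. The summed erythroid markers were the highest of the cell type lists in every library (at least 2070 CPM). Macrophage markers were low, with 8 markers summing to between 0.951 and 12.2 CPM. Of these, C1qc was at 0 in 13 libraries, while Csf1r and Cd68 were at 0 in none. CPM is a count scaled to the TMM-adjusted total of its library. Wildtype libraries 1 and 2 of group 1 held both Xist (529 and 863 CPM) and the Y-linked Ddx3y (49.6 and 29.8 CPM), so each held transcripts typical of both sexes. The counts of members called are given with and without these 2 libraries. In such bulk libraries, fewer cells of a type and less RNA per cell cannot be told apart.

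Sequences that bear on the control of the pathway are shown first. Alas2 mRNA carries an iron-responsive element, a hairpin bound by iron regulatory proteins that holds back its translation when iron is scarce. The site was found in the 5′ UTR of Alas2 as a C, 5 bases, the loop CAGTGN, and 5 bases that can pair with the earlier 5 (G with T allowed). The 30 bases shown lie on GRCm38 chrX:150547458-150547485 and, for the last 2 flanking bases, chrX:150552149-150552150 (forward strand). The hairpin itself is wholly within the upstream exon. The capitals mark the hairpin:
Alas2 iron-responsive element: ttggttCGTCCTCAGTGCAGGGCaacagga
The same pattern was present in the 5′ UTR of 31 of 21181 genes with an annotated 5′ UTR (0.15%) and of 1 of the 9 members.

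Most members were lower together in the mutants, so the upstream windows were searched for the letters of the GATA motif (AGATAA, or with T first, or with G last, or both) and of the CACCC motif recognised by KLF1 (CCNCNCCC), on both strands. RefSeq (GRCm38.p6) gave 11 windows of 250 bases before a start site for 8 of the members; Fech was not used. The GATA letters stood in 3 of the 11 windows, those of Alas2, Cpox and the second Uros start, against 26.5% of all 32851 windows. The CACCC letters stood in 7 of the 11, in 5 genes, against 45.9% of all windows. The windows of Alad overlap and share matches, which are counted in each, and those of Alas1 also overlap, so the 11 windows were not all separate. Windows are shown only where no exon is annotated, for the 3 genes with GATA letters and, for contrast, for Ppox, which like Urod had neither motif. Capitals mark the GATA letters, which overlap each other in Cpox; the minus-strand windows are written 5′ to 3′ as transcribed:
Alas2 (chrX:150547167-150547374, forward strand): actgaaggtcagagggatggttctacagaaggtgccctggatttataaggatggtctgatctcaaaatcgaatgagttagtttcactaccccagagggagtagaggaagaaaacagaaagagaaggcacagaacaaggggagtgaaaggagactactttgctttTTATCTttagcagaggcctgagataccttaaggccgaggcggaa
Uros, second start (chr7:133702617-133702750, reverse strand): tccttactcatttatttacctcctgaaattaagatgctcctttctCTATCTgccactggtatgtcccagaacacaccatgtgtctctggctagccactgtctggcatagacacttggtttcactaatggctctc
Cpox (chr16:58669958-58670207, forward strand): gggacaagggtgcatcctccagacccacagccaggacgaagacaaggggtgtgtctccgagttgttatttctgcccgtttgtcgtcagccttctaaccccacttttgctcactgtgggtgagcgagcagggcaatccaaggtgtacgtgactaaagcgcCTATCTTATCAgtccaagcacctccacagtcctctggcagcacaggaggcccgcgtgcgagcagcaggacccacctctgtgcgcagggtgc
Ppox (chr1:171281187-171281436, reverse strand): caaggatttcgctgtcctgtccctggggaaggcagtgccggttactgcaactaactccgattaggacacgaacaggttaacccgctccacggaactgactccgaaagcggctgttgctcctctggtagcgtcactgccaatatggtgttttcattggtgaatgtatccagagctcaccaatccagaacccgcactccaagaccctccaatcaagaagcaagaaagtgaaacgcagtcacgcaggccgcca
The 42 bases nearest the Alas2 start are annotated as exon and are not shown, and its 4 CACCC matches, some overlapping, lie there. The second GATA match of the Uros window also lies in annotated exon. The windows of Alas1, Alad and Tmem14c and the other Uros start held CACCC letters and no GATA letters. Motif presence was not tested against the fold changes. These matches describe letters in a window and not bound sites.

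Per length, the 9 transcripts spanned a wide range of levels in wildtype progenitors, with Alas1 at the bottom. Levels here are CPM per kilobase of annotated exon, mean ± SD of 3 libraries. In group 1 wildtype the order was Tmem14c (440 ± 6.24), Alad (252 ± 2.42), Cpox (241 ± 17.7), Urod (84.8 ± 0.294), Fech (30.2 ± 0.874), Ppox (26.8 ± 4.12), Alas2 (25.6 ± 5.88), Uros (18.04 ± 0.538) and Alas1 (4.47 ± 1.16). The neighbours Alad and Cpox overlapped between libraries, as did Ppox with Fech and with Alas2. In group 2 wildtype, Alad led (470 ± 9.98), followed by Tmem14c (357 ± 8.09) and Cpox (335 ± 31.1), whose libraries overlapped, and Alas1 was again lowest (2.81 ± 0.846). Divided by the longest transcript instead of all annotated exons, Cpox moved from rank 3 to rank 1 in both groups.

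**Figure D1:**
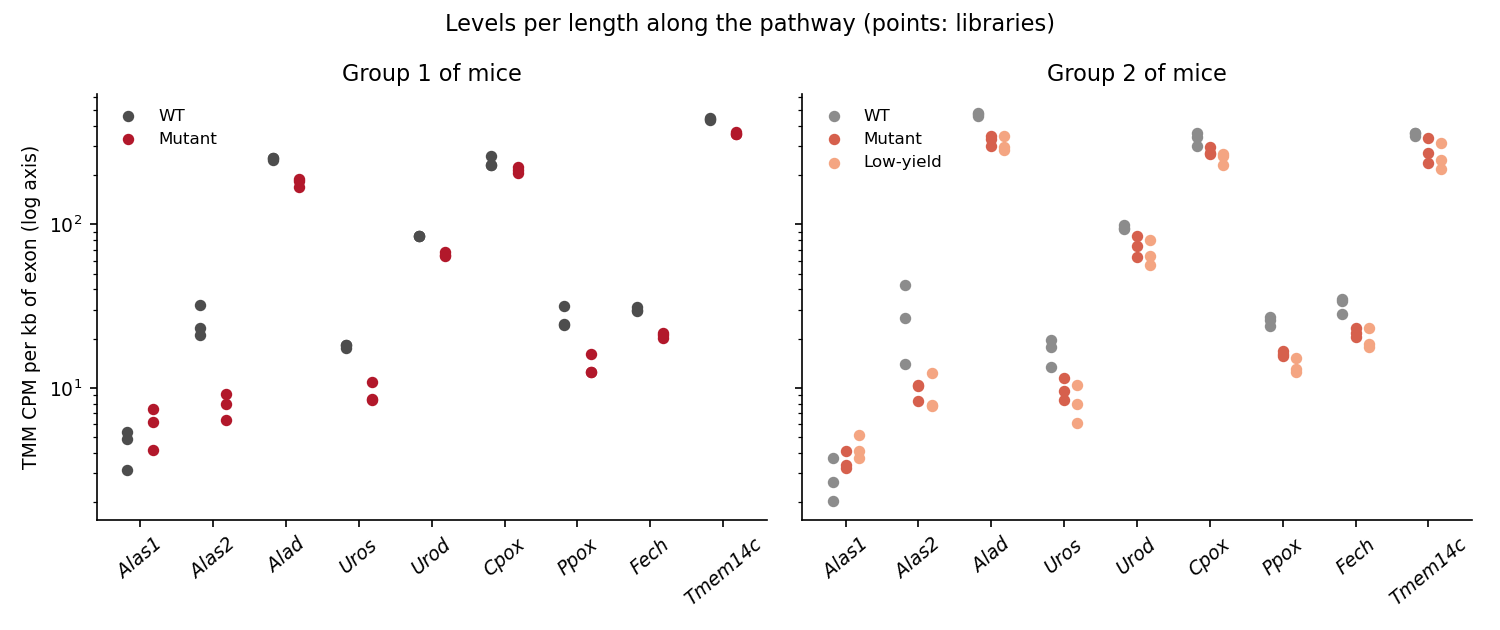
Level of each gene per library, in CPM per kilobase of exon on a log axis, for group 1 (left) and group 2 (right); each point is a library. Alas1 has the lowest wildtype mean in both groups, and Tmem14c (group 1) or Alad (group 2) the highest.

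At the entry step, Alas2 and Alas1 had fold changes of opposite sign against wildtype, not all of which passed. Alas2, the erythroid gene (GRCm38 chrX:150547375-150570638, forward strand), had the largest fall of the members in group 1. Group 1 gave 50.9, 56.2 and 77.6 CPM for wildtype, against 15.4, 22.1 and 19.3 for mutant libraries. Every mutant library was below every wildtype library. The log2 fold change was -1.70 (SE 0.207, adjusted p = 0.00424, edgeR's quasi-likelihood test), a level that fell by 69.3%. Group 2 held 33.7, 63.8 and 102 CPM across wildtype, 20.01, 25.01 and 24.8 across mutant, and 18.9, 18.7 and 29.5 across low-yield libraries. The wildtype libraries spread widely there (CV 51.3%), and no mutant library reached the lowest of them. The log2 fold changes, -1.53 (SE 0.412) and -1.58 (SE 0.41), were close to that of group 1 but did not pass in edgeR's quasi-likelihood test (adjusted p = 0.0878 and 0.0524). DESeq2 called both (adjusted p = 0.00393 and 0.00137). Without wildtype library 1, the lowest, both also passed (adjusted p = 0.00723 and 0.00356). Of 18 alternatives run, 13 in mutant and 12 in low-yield libraries did not pass (edgeR's quasi-likelihood test, adjusted p up to 0.271 and 0.186). Over the fits without a library, the fold changes ran from -1.83 to -1.08 and from -1.89 to -1.13.

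Alas1, the housekeeping gene of the same step (chr9:106233455-106248654, reverse strand), was the only member with a positive fold change in every comparison against wildtype. Wildtype libraries of group 1 had 19.5, 33.2 and 30.1 CPM and mutant ones 25.7, 45.8 and 38.3, which overlapped. The log2 fold change of 0.41 (SE 0.301) did not pass without pairing (adjusted p = 0.456), and ran from 0.22 without mutant library 2 to 0.61 without mutant library 1. Same-numbered libraries of group 1 deviated together (though wildtype library 3 more with mutant library 2 than with mutant library 3), and with the replicate number as a block the difference passed (0.41, adjusted p = 0.00187, edgeR's quasi-likelihood test). Each mutant library lay above the wildtype library of its number. Wildtype libraries of group 2 had 23.0, 16.5 and 12.6 CPM; mutant ones had 25.4, 20.01 and 20.9, and low-yield ones 31.8, 25.5 and 23.0. It rose in the low-yield libraries (log2 fold change 0.63, SE 0.19, adjusted p = 0.0459), where the lowest value, 22.99, lay just above the highest wildtype value, 22.97. That call did not hold in 6 of 9 fits lacking a library: wildtype 2 or 3, mutant 2 or 3, or low-yield 1 or 2 (adjusted p from 0.0597 to 0.192). It was also lost with no filter on low counts (adjusted p = 0.0596) and with the 6 compared libraries alone (0.0725). Of its exonic bases, 7.53% overlap 4930500F10Rik on the opposite strand. In the mutant libraries the fold change of 0.36 (SE 0.194) did not pass (adjusted p = 0.331). It ran from 0.16 without wildtype library 3 to 0.61 without wildtype library 1, where it passed (adjusted p = 0.0347).

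The ratio of the 2 genes within a library does not depend on library scaling. The log2 ratio of Alas2 to Alas1 CPM was 1.39, 0.76 and 1.37 in group 1 wildtype and -0.74, -1.05 and -0.99 in mutant libraries. Group 2 wildtype libraries had ratios of 0.55, 1.95 and 3.01, mutant ones -0.34, 0.32 and 0.25, and low-yield ones -0.75, -0.45 and 0.36. All 9 mutant libraries lay below every wildtype library of their group. The mean difference was -2.10 in group 1, -1.76 in group 2 and -2.12 for low-yield libraries, each with the smallest p that 3 against 3 libraries allow (exact permutation test, two-sided, p = 0.1). Without wildtype library 3 or 1, the group 2 difference was -1.18 or -2.41 and the low-yield one -1.535 or -2.76. Over both groups the difference was -1.93, a 3.81-fold lower ratio, lower in 6 of 6 mutant libraries (exact permutation test within groups, p = 0.005, the smallest possible; 0.02 adjusted over the 4 ratio tests). That test ignored the pairing of group 1. Relabelling only within its pairs, an alternative chosen after seeing the data, gave p = 0.0125 over both groups (exact permutation test, again the smallest possible; 0.05 after adjustment, which does not pass) and p = 0.25 in group 1, the smallest that 3 pairs allow. Per length, Alas2 made up 85.1% ± 3.27 (SD, n = 3) of the summed ALAS transcripts in group 1 wildtype and 57.4% ± 2.76 in mutant libraries. In group 2 the share was 88.4% ± 8.44 in wildtype, 72.9% ± 5.12 in mutant and 67.5% ± 8.37 in low-yield libraries. Divided by the longest transcript, the group 1 shares were 78.78% ± 4.27 in wildtype and 46.7% ± 2.83 in mutant libraries, and those of group 2 were 83.6% ± 11.3, 63.6% ± 5.92 and 57.6% ± 9.47, so whether Alas2 is the larger part in group 1 mutants turns on the length used. The sum of both genes per length was 30.1 ± 6.51 and 13.8 ± 3.06 CPM per kilobase in group 1 wildtype and mutant libraries, and 30.5 ± 13.4, 13.25 ± 0.708 and 13.6 ± 2.12 in the 3 sets of group 2.

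**Figure D2:**
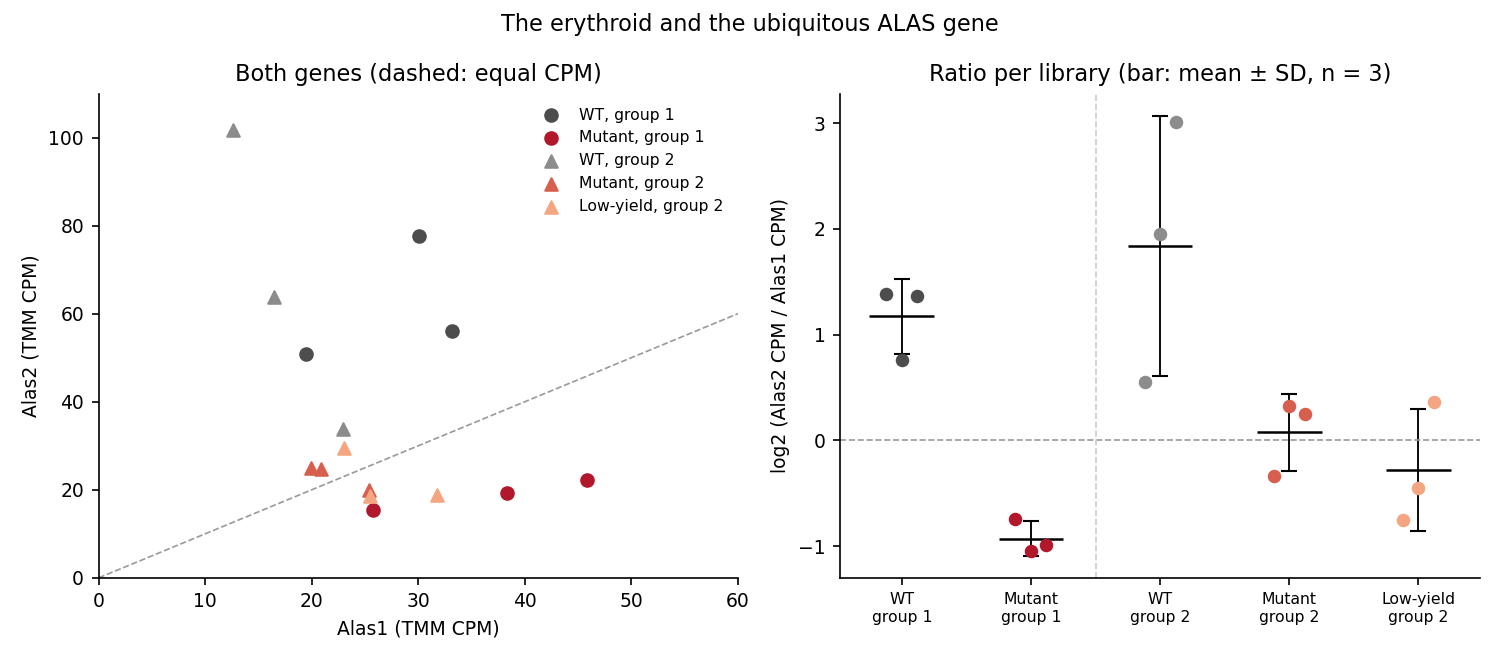
Left, Alas2 against Alas1 CPM in each library, with a dashed line where both are equal; right, log2 ratio of Alas2 to Alas1 CPM per library with mean ± SD of 3 libraries. Every wildtype library lies above the line, and all 3 mutant libraries of group 1 lie below it.

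The cytosolic enzymes had negative fold changes of different size, which were not tested against each other. Alad (chr4:62509169-62519918, reverse strand) joins 2 molecules of aminolevulinate into a pyrrole. Its CPM in group 1 was 474, 473 and 466 in wildtype and 354, 318 and 345 in mutant libraries. The 3 sets of group 2 gave 898, 878 and 861 CPM (wildtype), 619, 565 and 650 (mutant) and 556, 529 and 653 (low-yield). The gene was among the steadiest in wildtype (CV 0.962% and 2.12%), and no mutant library came near the wildtype range. It fell in all 3 comparisons with wildtype (log2 fold changes -0.47, -0.53 and -0.61; adjusted p = 0.000633, 0.00264 and 0.000455, edgeR's quasi-likelihood test).

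Uros (chr7:133686243-133710072, reverse strand) closes the linear tetrapyrrole into a ring and has a housekeeping and an erythroid promoter. Group 1 gave 62.3, 65.6 and 65.7 CPM for wildtype, against 30.4, 38.8 and 30.1 for mutant libraries. It fell by 48.7% (log2 fold change -0.96, SE 0.0979, adjusted p = 0.000163, edgeR's quasi-likelihood test). Group 2 held 48.3, 64.0 and 70.1 CPM across wildtype, 30.2, 34.0 and 41.1 across mutant, and 28.3, 21.9 and 37.0 across low-yield libraries. Both mutant sets lay below wildtype without overlap but overlapped each other, with low-yield library 2 the lowest. The log2 fold change was -0.80 (SE 0.192, adjusted p = 0.0339) in mutant and -1.07 (SE 0.193, adjusted p = 0.0048) in low-yield libraries. The mutant call of group 2 was lost in 5 of 9 fits without a library: wildtype 2 or 3, mutant 1 or 2, or low-yield 1 (adjusted p from 0.0587 to 0.143). It was also lost with no filter on low counts (adjusted p = 0.0719).

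Urod (chr4:116989965-116994413, reverse strand), which trims the side chains of the ring, was at 219, 220 and 220 CPM in group 1 wildtype and 167, 174 and 167 in mutant libraries. It fell by 22.8% there (log2 fold change -0.37, SE 0.0553, adjusted p = 0.0015, edgeR's quasi-likelihood test). Wildtype libraries of group 2 had 258, 243 and 245 CPM; mutant ones had 191, 163 and 219, and low-yield ones 166, 147 and 208. Mutant library 3 and low-yield library 3 lay nearest to wildtype. The fold change was -0.38 (SE 0.119, adjusted p = 0.0741) in mutant libraries, which did not pass (it did with the 6 compared libraries alone, adjusted p = 0.0464, with DESeq2, 0.0331, and without low-yield library 3, 0.0344), and -0.52 (SE 0.12, adjusted p = 0.0108) in low-yield libraries, a call lost without low-yield library 1 or 2 (adjusted p = 0.0641 and 0.0667).

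Cpox (chr16:58670292-58717636, forward strand), whose protein acts between the membranes of the mitochondrion, had the most counts of the members and the smallest change. It held 46.5% to 48.6% of the members' summed CPM in group 1 wildtype and 51.1% to 54.2% in mutant libraries. In group 2 these shares overlapped, with 47.8% to 53.65% for wildtype, 52.2% to 58.4% for mutant and 51.6% to 59.1% for low-yield libraries. Wildtype libraries of group 1 had 1530, 1539 and 1738 CPM and mutant ones 1427, 1364 and 1492. The libraries did not overlap, but the log2 fold change of -0.17 (SE 0.0707) did not pass (adjusted p = 0.153, edgeR's quasi-likelihood test) and was -0.10 without wildtype library 3. The 3 sets of group 2 gave 2404, 2001 and 2286 CPM (wildtype), 1798, 1965 and 1813 (mutant) and 1531, 1802 and 1737 (low-yield). Mutant library 2 and wildtype library 2 were close. The fold change was -0.27 (SE 0.0892, adjusted p = 0.0948) in mutant libraries, called by DESeq2 alone (adjusted p = 0.0479), and -0.40 (SE 0.0893, adjusted p = 0.00797) in low-yield libraries, a call lost without low-yield library 1 (adjusted p = 0.073). Gpr15, on the opposite strand, overlaps 3.06% of its exonic bases.

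Ppox (chr1:171275990-171281186, reverse strand) oxidises the ring to protoporphyrin in the inner mitochondrial membrane. Its CPM in group 1 was 110, 111 and 142 in wildtype and 56.1, 72.5 and 56.3 in mutant libraries. Group 2 held 108, 118 and 123 CPM across wildtype, 70.3, 76.3 and 72.8 across mutant, and 56.7, 59.2 and 68.8 across low-yield libraries. All 3 low-yield libraries were below all 3 other mutant libraries, the only member for which this held. It fell in all 3 comparisons with wildtype (log2 fold changes -0.97, -0.67 and -0.92; adjusted p = 0.00566, 0.000781 and 3.76e-05, edgeR's quasi-likelihood test). Of its exonic bases, 17.5% are shared with B4galt3 on the opposite strand, and the use of strand in counting is not given in the sources used here. B4galt3 itself was not called (log2 fold changes -0.11, -0.07 and -0.05).

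Fech (chr18:64452914-64490251, reverse strand) inserts the iron. It was at 410, 413 and 432 CPM in group 1 wildtype and 291, 298 and 281 in mutant libraries. Wildtype libraries of group 2 had 390, 470 and 486 CPM; mutant ones had 284, 300 and 322, and low-yield ones 255, 245 and 323. Each mutant library was below each wildtype library. It fell against wildtype in all 3 comparisons (log2 fold changes -0.53, -0.57 and -0.72; adjusted p = 0.000248, 0.00641 and 0.000756, edgeR's quasi-likelihood test), and kept these calls without any single library. Stretches of its transcripts resemble other genes, among them Gm48541 (478 bases at 95.6%), so a few reads may have been shared.

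Tmem14c (chr13:41016292-41022586, forward strand) encodes a mitochondrial inner membrane protein needed in red cell precursors to bring protoporphyrinogen to the last steps. Group 1 gave 406, 396 and 405 CPM for wildtype, against 324, 336 and 327 for mutant libraries. It fell by 18.1% (log2 fold change -0.29, SE 0.0544, adjusted p = 0.00565, edgeR's quasi-likelihood test). The 3 sets of group 2 gave 318, 329 and 332 CPM (wildtype), 251, 216 and 307 (mutant) and 226, 199 and 285 (low-yield). As for Urod, mutant library 3 and low-yield library 3 lay nearest to wildtype. The fold change was -0.34 (SE 0.131, adjusted p = 0.153) in mutant libraries, not called, and -0.47 (SE 0.131, adjusted p = 0.0347) in low-yield libraries, a call lost in 6 of 9 fits without a library: any wildtype library, mutant 1, or low-yield 1 or 2 (adjusted p from 0.0609 to 0.153). The call was also lost with no filter on low counts (adjusted p = 0.078). The pseudogene Gm4246 matches 215 bases of the transcript at 95.8%, so reads may have been shared with it.

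**Figure D3:**
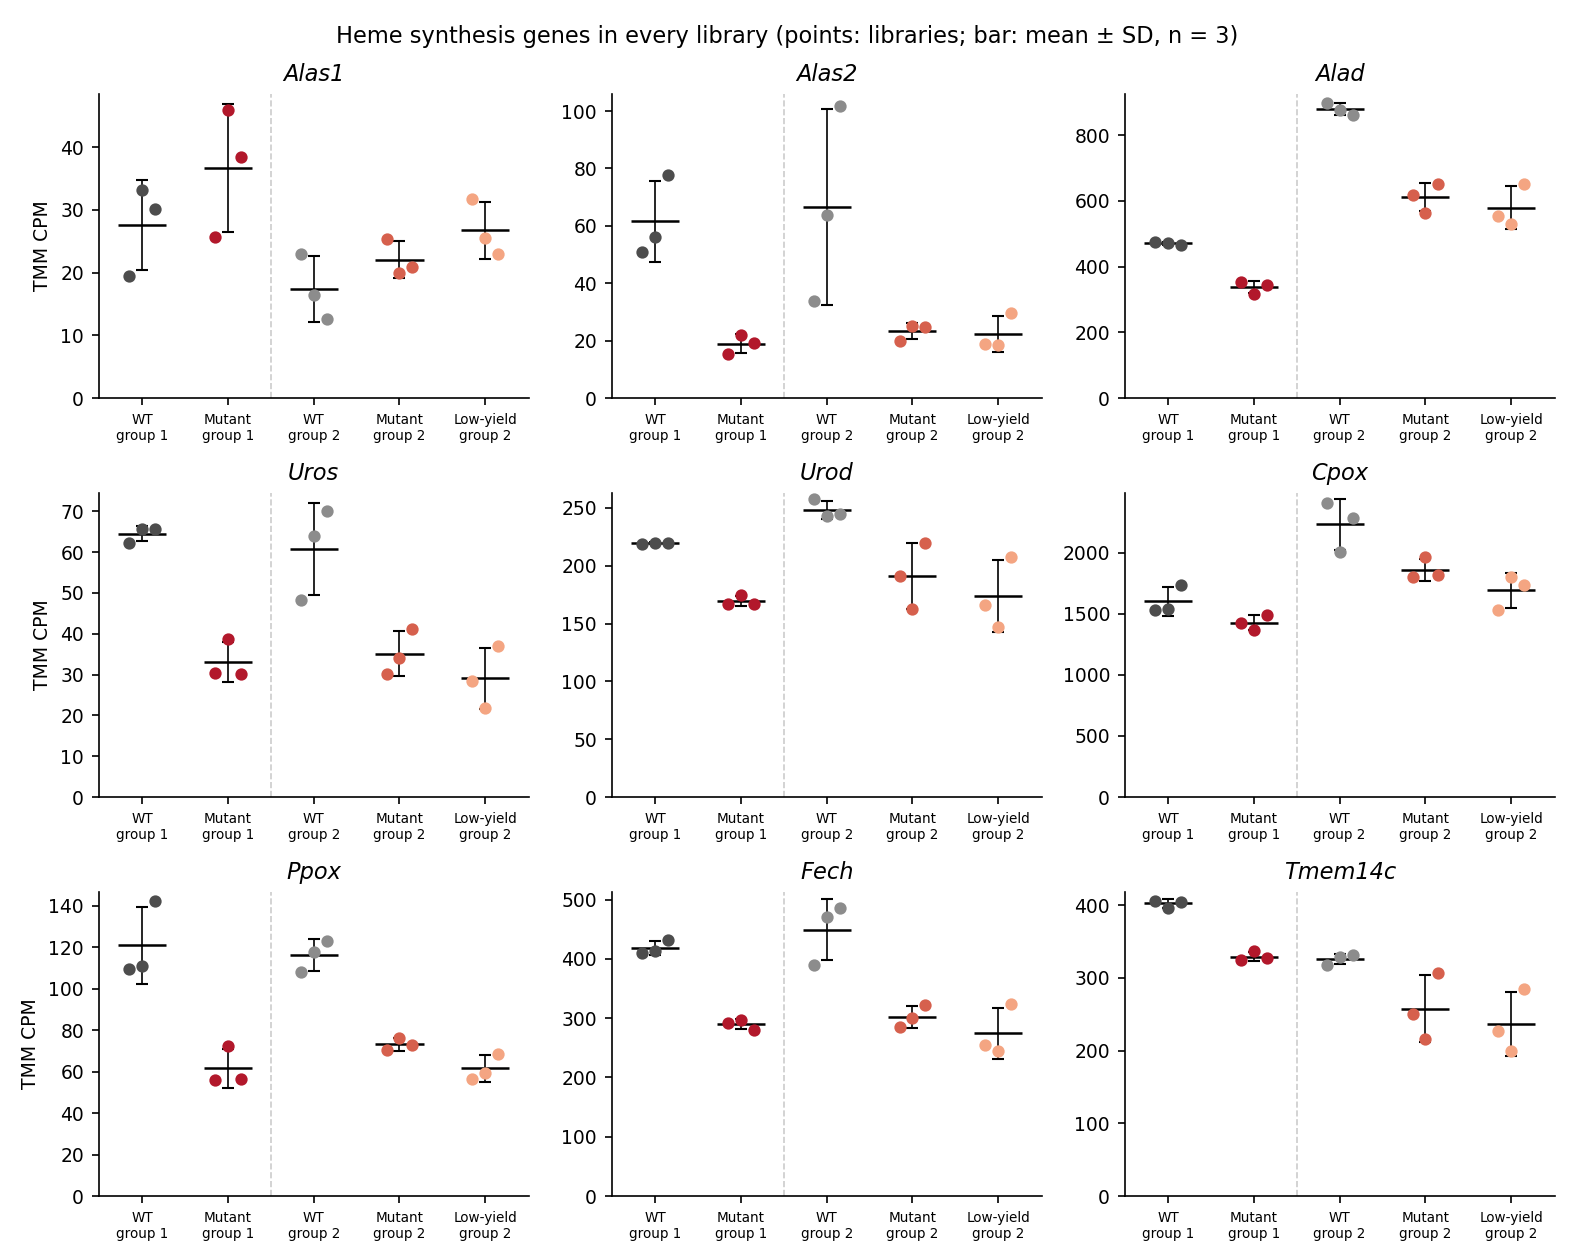
CPM of the 9 genes in every library (points), with the mean and SD of 3 libraries, in the 5 groups; each axis starts at 0 and the dashed line separates the groups of mice. Except for Alas1, every mutant library lies below every wildtype library of its group.

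Counted together and without pairing, 7 of 9 members fell and none rose in group 1, where 6.78% of the 14048 genes tested were called lower and 5.79% higher. At an unadjusted p under 0.05 the count was 8, against 27.4% of genes. The median log2 fold change of the members was -0.47, against 0.01 over all genes. Alas1 and Cpox did not pass. With the replicate number as a block, 7 fell and 1 rose (Alas1, adjusted p = 0.00187, edgeR's quasi-likelihood test). Without wildtype libraries 1 and 2, which left a lone wildtype library assumed to vary like the mutants, 4 members were called (Alas2, Uros, Ppox and Fech) and 196 of all genes. The fold changes then ran the same way for all 9, with Alad at -0.45, Urod at -0.37 and Tmem14c at -0.29. Without either library alone, 7 were called.

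In group 2, 4 of 9 members fell in the mutant libraries (Alad, Uros, Ppox and Fech) and none rose, where 2.95% of 15024 genes were called lower and 3.32% higher. At an unadjusted p under 0.05 the count was 8, against 20.4% of genes. Their median was -0.53, against -0.01 over all genes. DESeq2 called 7, and 1452 of all genes where edgeR's quasi-likelihood test called 443 lower and 499 higher. In the low-yield libraries 7 members fell and Alas1 rose, where 5.86% of genes were called lower and 6.68% higher. All 9 had an unadjusted p under 0.05, against 26.5% of genes. The median was -0.61, against -0.00 over all genes. Without low-yield library 1 the count was 4, and without low-yield library 2 it was 5. The comparisons of group 2 share their wildtype libraries. Values that did not overlap with wildtype, all lower, were found for 8 members in each of the 3 comparisons, against 16.6%, 11.5% and 14.1% of all genes tested. Alas1 lay wholly above wildtype in the low-yield libraries, as did 15.6% of genes.

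No member was called between low-yield and other mutant libraries, nor was any of the 15024 genes (0%). The log2 fold changes ran from -0.27 for Uros to 0.27 for Alas1, and 8 of 9 were negative (7 of 9 in 4 of the 9 fits without a library). Uros was at -0.10 without low-yield library 2, -0.15 without mutant library 3 and -0.49 without low-yield library 3, and Alas1 at 0.13 without low-yield library 1. Of the members, 1 had an unadjusted p under 0.05 (Ppox, -0.25, 95% interval -0.45 to -0.05), against 3.19% of all genes. Ppox was also the only member without overlap, on the lower side, against 3.85% of genes lower and 4.08% higher. DESeq2 and voom called no member (6 and 4 genes in all). The interval for Alas2, -1.07 to 0.96, leaves room for differences in either direction.

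Both groups of mice were also put in 1 fit of 12 libraries, without the low-yield ones, with the group as a term. In it 8 of 9 members fell, all but Alas1, where 9.8% of 15954 genes were called lower and 9.8% higher. The same 8 had an unadjusted p under 0.05, against 31.7% of genes. The fall was largest for Alas2 (-1.62, SE 0.25, adjusted p = 0.00153, edgeR's quasi-likelihood test), then Uros (-0.88), Ppox (-0.82), Fech (-0.55), Alad (-0.50), Urod (-0.38), Tmem14c (-0.31) and Cpox (-0.21, adjusted p = 0.0097). Alas1 stood at 0.39 (SE 0.178, adjusted p = 0.16), and passed with the replicate number as a block (adjusted p = 0.000794, edgeR's quasi-likelihood test). That block paired the libraries of group 2 by number too, a pairing that was not adopted for group 2. The same 8 were called without any single library and without wildtype libraries 1 and 2 of group 1. The effect of genotype was not found to differ between the groups of mice for any member (adjusted p = 1 for each, edgeR's quasi-likelihood test). Over all genes, 0.0188% were called for that difference, no member had an unadjusted p under 0.05 (2.14% of genes did), and DESeq2 and voom called no member (13 and 3 genes). The nearest was Ppox, which lay 0.32 less far below wildtype in group 2 (95% interval -0.01 to 0.64; 0.19 without wildtype library 3 of group 1).

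**Figure D4:**
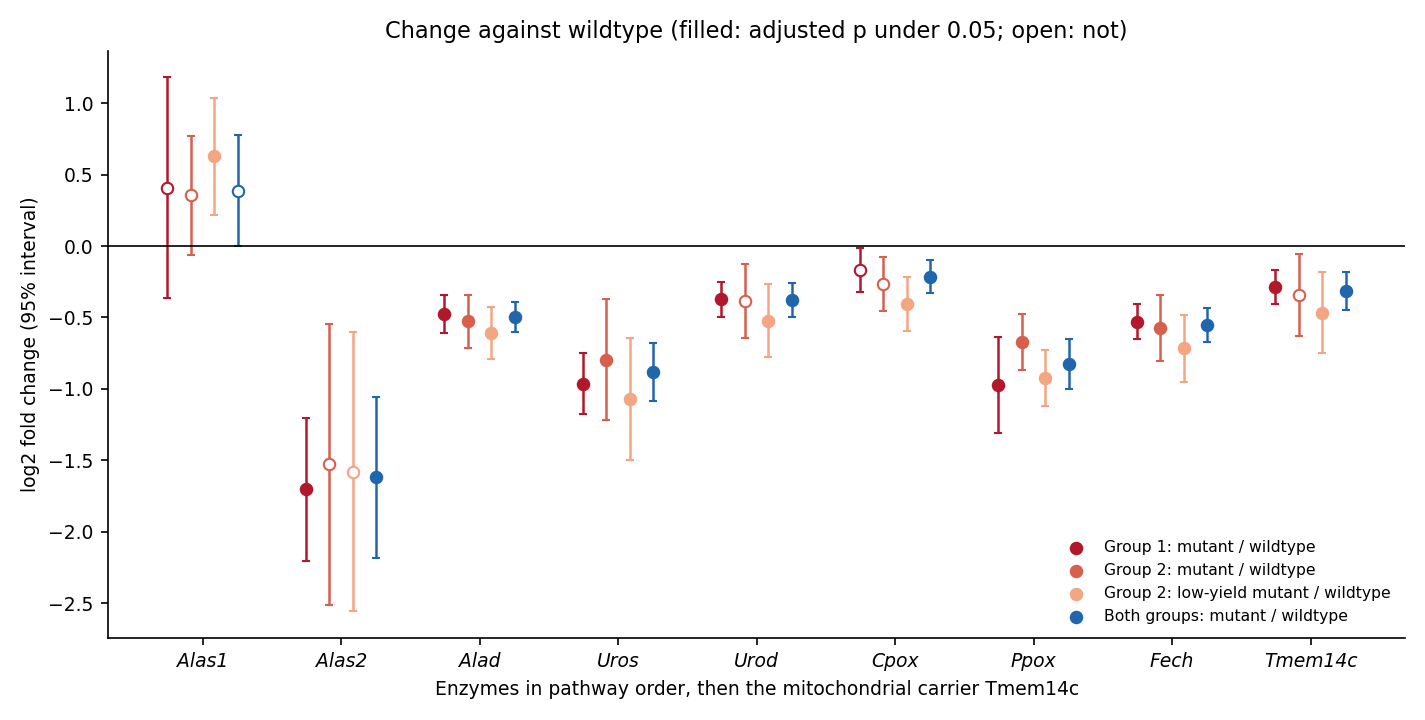
Log2 fold change against wildtype with its 95% interval for each gene and comparison, enzymes in pathway order and Tmem14c last; filled points passed an adjusted p of 0.05 and open points did not. Alas1 lies above 0 and all other genes below it in each comparison.

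The genes that varied most like Alas2 included adult globins. Its pattern over 15 libraries was compared with that of 9471 genes by the root mean square difference of log2 CPM, centred on the wildtype mean of each group. The 5 genes nearest to it were Hba-a1, an adult alpha globin (0.136), Tmcc2 (0.28), Samd11 (0.297), Hbb-bs, an adult beta globin (0.321), and Fam214b (0.363). Hba-a1 has a near-identical copy, between which reads may have been split. The nearest member was Uros, with 37 genes closer to Alas2, then Ppox with 58 and Fech with 168. Cpox had 1135 and Alas1 8960 genes closer.

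Among wildtype libraries, Alas2 was ordered like the summed erythroid markers, a sum in which Hba-a1, the gene nearest to Alas2, weighs most. The group 2 wildtype library with the lowest Alas2 (33.7 CPM) had the lowest sum of 8 erythroid markers (3846 CPM), and that with the highest (102) had the highest sum (6686). Alas1 had the reverse order there (23.0 and 12.6 in the same libraries). In group 1, too, the library with the lowest Alas2 had the lowest marker sum (3420) and that with the highest the highest (4278). Alas1 did not have the reverse order in group 1, with 19.5 CPM in the former and 30.1 in the latter. Klf1, another of the markers, was lowest where Alas2 was highest, at 574, 587 and 504 CPM in group 1 wildtype libraries 1, 2 and 3 and 841, 866 and 784 in those of group 2.

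These marker sums, in which Hba-a1 and Tfrc weigh most, differed with genotype beside the members. The erythroid sum was 3420 to 4278 CPM in group 1 wildtype and 2070 to 2104 in mutant libraries, and 7 of 8 markers fell (6.78% of all genes did). In group 2 wildtype sums ran from 3846 to 6686, mutant sums from 2742 to 3180 and low-yield sums from 2427 to 3193. In group 2, 3 markers fell in mutant and 5 in low-yield libraries, against 2.95% and 5.86% of all genes. Gata1 did not pass in any of the 3 (log2 fold changes 0.14, 0.06 and 0.06). All 5 early progenitor markers had positive fold changes in each comparison, of which 1 rose in group 1 and 2 in each set of group 2 (5.79%, 3.32% and 6.68% of all genes did). Their sum was 490.8 to 625 CPM in group 1 wildtype and 548.2 to 666.6 in mutant libraries. In group 2 it was 430.9 to 585 in wildtype, 586 to 671.4 for mutant and 598.7 to 722.7 for low-yield libraries. Kit rose in all 3 (0.30, 0.47 and 0.52; adjusted p = 0.0126, 0.0136 and 0.00382, edgeR's quasi-likelihood test), and Gata2 in both sets of group 2 (1.37 and 1.82; 1.55 in group 1, adjusted p = 0.258). The sum of 4 granulocyte markers was 6.49 to 11.9 CPM in group 2 wildtype, 47.8 to 130 in mutant and 83.9 to 153 in low-yield libraries; all 3 of those tested rose. In group 1 the ranges, 38.3 to 222.5 and 91.9 to 641.8, overlapped. The sum of 8 hepatocyte markers was 33.6 to 62.85 CPM in group 1 wildtype and 5.87 to 22.0 in mutant libraries, where 2 of them fell, and the ranges overlapped in group 2 (10.11 to 76.5, 8.98 to 47.6 and 42.5 to 48.4). The sum of 4 megakaryocyte markers overlapped in group 1 (13.4 to 23.2 and 18.9 to 32.2) and did not in group 2 (11.2 to 13.6 in wildtype, 18.8 to 19.02 in mutant, 27.8 to 37.1 in low-yield libraries). Itga2b, with means of 9.19, 15.7 and 28.4 CPM, made up most of that sum and rose in both sets of group 2 (0.77 and 1.62; adjusted p = 0.0135 and 3.57e-05, edgeR's quasi-likelihood test). Gp1bb rose in low-yield libraries (1.995, adjusted p = 0.0494) and did not pass in mutants (1.865, adjusted p = 0.109), so 1 of 4 markers rose in mutant and 2 of 4 in low-yield libraries, against 3.32% and 6.68% of all genes. Gp9 (-0.22 and -0.64) and Pf4 (-0.61 and 1.91) did not pass in either set. Of 4 macrophage markers tested, none was called in group 1 or in either set of group 2, and 1 rose over both groups, where 9.8% of all genes rose. The part of these other cells in the results was not tested.

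Alas2 lies on the X chromosome, and sexes were mixed within groups. In group 2, the wildtype libraries with high Xist (1043 and 1405 CPM) had Alas2 at 33.7 and 102 CPM, and the one with low Xist (17.8 CPM) at 63.8. The mutant libraries of that group had 20.01 and 24.8 with high and 25.01 with low Xist, all below the 3 wildtype libraries. The low-yield libraries had 18.9 and 18.7 with high and 29.5 with low Xist. In group 1 mutants the library with high Xist had 15.4 and the 2 with low Xist 22.1 and 19.3. Within each mutant set the low-Xist libraries thus had the higher Alas2, but barely so in group 2 mutants (25.01 against 24.8). The low-Xist library of the low-yield set also had the highest Alad, Uros, Urod, Ppox, Fech and Tmem14c of that set. It did not have the highest Cpox or Alas1. The part of sex in the results was not tested. Of the exonic bases of Alas2, 15.5% overlap genes on the opposite strand, chiefly Apex2, which was at 14.6 ± 0.353 CPM in group 1 wildtype and 15.4 ± 0.709 in mutant libraries (log2 fold change 0.07, adjusted p = 0.699).

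Genes that feed and assist the path were taken from lists by their known role. Of 9 genes for the supply of glycine and succinyl-CoA, 2 fell and none rose in group 1, 1 fell in the group 2 mutants, 2 in the low-yield libraries and 2 over both groups. Of all genes, 6.78%, 2.95%, 5.86% and 9.8% were called lower in these 4 comparisons. The median was 0.03 over both groups, against -0.00 over all genes. The 2 were the glycine carriers of the cell and the mitochondrial membrane. Slc6a9, which brings glycine into the cell, was at 44.7, 51.8 and 59.2 CPM in group 1 wildtype and 36.9, 34.7 and 32.1 in mutant libraries, without overlap (-0.59, adjusted p = 0.00429, edgeR's quasi-likelihood test). It also fell in both sets of group 2 (-0.71 and -0.74). Slc25a38, which passes glycine into the mitochondrion, fell in group 1 (-0.45, adjusted p = 0.00118) and the low-yield libraries (-0.55, adjusted p = 0.0104), and stood at -0.33 in the group 2 mutants (adjusted p = 0.136).

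Of 9 mitochondrial carriers and partners of the pathway, 4 fell in group 1, 2 in the group 2 mutants, 5 in the low-yield libraries and 5 over both groups, and none rose (6.78%, 2.95%, 5.86% and 9.8% of all genes were lower). The median over both groups was -0.22. Abcb10, a transporter of the inner membrane needed for heme synthesis in red cells, was at 139, 174 and 162 CPM in group 1 wildtype and 98.1, 99.4 and 89.6 in mutant libraries. It fell there and in both sets of group 2 (-0.72, -0.75 and -0.87; adjusted p = 0.000437, 0.00667 and 0.00144, edgeR's quasi-likelihood test). Tspo2, an erythroid relative of the translocator protein, was at 30.7, 26.4 and 33.1 in group 1 wildtype and 16.1, 15.7 and 14.98 in mutant libraries (-0.95, adjusted p = 0.000316). It fell likewise in group 2 (-0.74 and -1.08). No mutant library of either gene reached the wildtype range.

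Of 13 genes of iron-sulfur cluster assembly, which Fech depends on for its cluster, 3 fell and 1 rose over both groups, with a median of -0.16. In group 1, 1 fell and 1 rose; in group 2, none fell and 1 rose in mutant, and 2 fell and 1 rose in low-yield libraries. These are shares near those of all genes in group 1 (6.78% lower, 5.79% higher); in group 2, 2.95% of all genes were lower and 3.32% higher in mutant, and 5.86% and 6.68% in low-yield libraries, and 9.8% each way over both groups. Isca1, an assembly factor, fell in group 1 (-0.34, adjusted p = 0.00293, edgeR's quasi-likelihood test) and over both groups (-0.33, adjusted p = 0.000273). In group 2 it fell in low-yield libraries (-0.44, adjusted p = 0.0158) and did not pass in mutants (-0.33, adjusted p = 0.0876). Hspa9, the mitochondrial Hsp70 chaperone, went the other way, at 1152, 1037 and 1057 CPM in group 1 wildtype and 1457, 1276 and 1454 in mutant libraries. It rose in all 3 comparisons (0.37, 0.33 and 0.37; adjusted p = 0.00607, 0.0383 and 0.0125).

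Of 11 regulators of heme genes in erythroid cells, 3 fell in group 1, 2 in the group 2 mutants, 3 in the low-yield libraries and 5 over both groups, and none rose. Of all genes, 6.78%, 2.95%, 5.86% and 9.8% were lower in the same order. The median over both groups was -0.14. Klf1, an erythroid activator, was at 574, 587 and 504 CPM in group 1 wildtype and 392, 396 and 376 in mutant libraries, without overlap. It fell in all 3 comparisons (-0.51, -0.48 and -0.61; adjusted p = 0.000691, 0.00392 and 0.000358, edgeR's quasi-likelihood test). Nfe2, another erythroid factor, fell over both groups (-0.24, adjusted p = 0.00338), while Gata1 stood at 0.10 (adjusted p = 0.208).

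Of 4 regulators of Alas1, 3 passed the filter and 1 rose over both groups, where 9.8% of all genes rose. Nr1d1, a heme-binding repressor, was at 4.36, 5.04 and 5.71 CPM in group 1 wildtype and 7.76, 6.70 and 6.62 in mutant libraries. It rose over both groups (0.52, adjusted p = 0.0226, edgeR's quasi-likelihood test) and in the low-yield libraries (0.81, adjusted p = 0.0413), and did not pass in group 1 (0.47, adjusted p = 0.0986) or the group 2 mutants (0.57, adjusted p = 0.216). Foxo1, an activator of Alas1 in liver, stood at 0.17 (adjusted p = 0.225). None of the 3 genes for the turnover and activation of ALAS was called in any comparison; Clpx, the chaperone that loads the cofactor of ALAS, was at -0.14 over both groups (adjusted p = 0.125) and its protease partner Clpp at 0.16 (adjusted p = 0.256).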

How the data were processed

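RNA was extracted with a kit for small samples and read as 151 bp paired ends, per the labels' protocols. The authors deposited expected counts per gene, 1 table for each group of mice; per the submitters' processing notes, cutadapt 2.3, STAR 2.7.8a, RSEM 1.3.3 and GRCm38 were used. Annotation release and use of strand are not given in the sources used here. All deposited expected counts were whole, so rounding changed none. Reporter rows (5 and 4 rows; 5 counts in all) were left out.

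The main test was edgeR 4.0.16 (R 4.3.3) with TMM scaling, filterByExpr, a robust quasi-likelihood fit with bias-adjusted deviances, a two-sided F test and Benjamini-Hochberg adjustment over all genes tested, with a threshold of 0.05. That deviance mode was set after results in the version's default mode had been seen, to match earlier processing. DESeq2 1.42.0 and limma 3.58.1 (voom) were alternatives. The fits were tested on simulated counts with 200 changed genes: in group 1, 27.6% of those changed by 0.5 (log2) and 75% of those changed by 1.5 were called. Each member had at least 523 counts in each library. Alternatives were scaling, tool, filter, replicate block and left-out libraries.

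Lengths, loci and exon overlaps came from GENCODE M21 (GRCm38), which held 99.4% of the gene rows; promoter windows came from RefSeq GRCm38.p6. Other pathway lists came from general knowledge. Beside the members, the 2 genes with the smallest p of each list over both groups, Rpl5, Klf1, Gata1, Kit, Gata2 and the 5 genes most like Alas2 (mean CPM of at least 2 in both groups of mice, prior count 2, predicted genes and pseudogenes passed over) were named; other genes named as markers or overlapping genes were added for the values beside the members. The members and lists were chosen with earlier results of these data known. Same-numbered libraries of group 1 deviated together from their group means across genes (r = 0.441, 0.187 and 0.147), so the number was taken to pair them, although wildtype library 3 correlated more with mutant library 2 (r = 0.231) than with its own number.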

Additional observations from a re-analysis of the deposited data

How the results depend on the processing

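Each of the 9 members kept the direction of its fold change against wildtype under the alternatives run (scaling, tool, filter, block, left-out libraries): 15 in group 1, 18 in each set of group 2 and 21 over both groups. Counts of called members changed by more than 1.5 times in these cases: in group 2 mutants 7 with DESeq2 and 7 with the replicate block, against 4; in group 1, 4 without both wildtype libraries that held transcripts of both sexes, against 7 (chosen after seeing the data); and in low-yield libraries 4 to 8 over the fits without a library, against 8. The cause was not tested. Leaving out a library gave 3 to 6 members in group 2 mutants, 7 in group 1 and 8 over both groups. In edgeR's default mode, Alas1 lost its low-yield call (adjusted p = 0.0541). Under the replicate block, group 2 gained Alas2, Urod and Tmem14c in mutant and Alas2 in low-yield libraries. The numbers of group 2 were not taken to pair libraries. There, same-numbered libraries correlated at 0.241, 0.174 and 0.0242 for wildtype and mutant, and at 0.0835, -0.068 and 0.016 for wildtype and low-yield. As in group 1, wildtype library 3 correlated more with mutant library 2 (0.116). The choice to pair group 1 and not group 2 rested on no set cutoff of the correlation.

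Differences near 0 changed sign. For the difference in effect between groups of mice, Urod (0.007451) was at -0.01927 with RLE scaling, -0.01993 with DESeq2, -0.006367 with no filter, -0.005236 when genes under a mean of 5 CPM were dropped, and -0.001552 with the replicate block; under voom, Alas1 was at 0.08606, Alad at 0.0008411 and Tmem14c at 0.04663. Over fits without a library, this difference ran from -0.2636 to 0.1798 for Alas1, -0.1541 to 0.6066 for Alas2, -0.1262 to 0.09182 for Urod and -0.2041 to 0.05922 for Tmem14c. Between low-yield and other mutants it ran from -0.3106 to 0.06747 for Alas2 and -0.2786 to 0.01606 for Tmem14c. None of these passed. Divided by the longest transcript, Cpox ranked 1 in level in both groups, against 3, and Alas2 made up 78.78% of ALAS in group 1 wildtype, against 85.1%. The median of all genes moved by less than 0.1 (log2) under each scaling. With no filter on low counts, calls were lost for Uros in group 2 mutants (adjusted p = 0.0719) and for Tmem14c (0.078) and Alas1 (0.0596) in low-yield libraries; with the 6 compared libraries alone, that of Alas1 was lost (0.0725) and Urod was gained in group 2 mutants (0.0464). Alas2 in group 2 mutants, not called, passed with the fit that was not robust (adjusted p = 0.00871), DESeq2 (0.00393) and voom (0.00131). It did not pass in 13 of the 18 alternatives.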
